A study of Homo sapiens with 6 samples.

Results

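The replication-dependent histone genes are the intronless genes that supply the core histones H2A, H2B, H3 and H4 and the linker histone H1 while DNA is copied. Members were the GENCODE protein-coding genes with H2AC, H2BC, H3C or H4C and a number as symbol, or H1-1 to H1-6, on chromosomes 1, 6 and 12. This rule took 69 of 20007 protein-coding genes, namely 6 of the H1 family, 17 H2A, 18 H2B, 13 H3 and 15 H4 genes. All 69 canonical transcripts had a single exon, with a median length of 487 bases (386 to 2224), as is known for these genes.

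The H3K27ac mark (acetylated lysine 27 of histone H3, found at active promoters and enhancers) was mapped by CUT&Tag, in which an antibody guides a transposase to cut the DNA around the modified histone. Cells came from human lines of acute myeloid leukemia (AML), namely Kasumi-1, which carries a RUNX1::RUNX1T1 fusion, and MV4-11, which carries a KMT2A fusion. Each line was given as a control (NC, written as untreated in the labels and as the control hairpin sh-NC in the study's methods) and with a short hairpin RNA against ANP32B (sh-ANP32B), an acidic nuclear phosphoprotein that binds histones. That gave 4 groups with 1 peak list each, and which of the study's hairpins was used is not given in the labels. Replicates had been merged before peaks were called, so there was no spread between replicates and no test, and every difference below describes these 4 libraries only. Where 4 values follow each other below, they stand for Kasumi-1 NC, Kasumi-1 sh-ANP32B, MV4-11 NC and MV4-11 sh-ANP32B, in this order.

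Histone genes lie in clusters, and many H2A and H2B genes stand head to head and share the short stretch between their starts. In S phase their transcription is switched on by NPAT, a coactivator that cyclin E and CDK2 phosphorylate, in a nuclear compartment called the histone locus body. Their messages are not polyadenylated but end after a stem-loop that SLBP binds and that the U7 small nuclear ribonucleoprotein helps to cut. POU2F1 (Oct-1) is known to act through the octamer element of H2B promoters, and HINFP through a proximal element of H4 promoters.

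The promoters below show what these windows carry. They are the 250 bases before the RefSeq start of the member with the most bases under peaks, on average over the 4 libraries, in each family, followed by H4C6, an H4 gene with no peak. At a mean of 2001 bases H2AC20 was level with H2AC11, H2BC21 with H2BC11 and H3C14 with H3C15. The first in genome order was taken. All 6 sequences are from RefSeq (GRCh38.p14), were the same in the hg38 genome used here, and are written 5′ to 3′ on the strand of the gene. H1-2 lies at chr6:26056471-26056720 (minus strand), H2AC20 at chr1:149886668-149886917 (plus), H2BC21 at chr1:149886683-149886932 (minus), H3C14 at chr1:149841209-149841458 (minus), H4C5 at chr6:26204360-26204609 (plus) and H4C6 at chr6:26240143-26240392 (plus). Capitals mark matches to 4 motifs on either strand. The TATA motif was TATAAA, which reads TTTATA on the other strand. The CCAAT motif reads ATTGG there. The octamer was ATTTGCAT, with ATGCAAAT as its reverse complement. The last motif was GGTCCG, which becomes CGGACC. Overlapping matches were all kept.
H1-2: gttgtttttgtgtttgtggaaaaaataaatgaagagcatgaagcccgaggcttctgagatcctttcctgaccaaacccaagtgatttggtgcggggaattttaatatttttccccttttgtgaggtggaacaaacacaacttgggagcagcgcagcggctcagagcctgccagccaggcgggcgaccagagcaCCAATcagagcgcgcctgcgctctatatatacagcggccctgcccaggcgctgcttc
H2AC20: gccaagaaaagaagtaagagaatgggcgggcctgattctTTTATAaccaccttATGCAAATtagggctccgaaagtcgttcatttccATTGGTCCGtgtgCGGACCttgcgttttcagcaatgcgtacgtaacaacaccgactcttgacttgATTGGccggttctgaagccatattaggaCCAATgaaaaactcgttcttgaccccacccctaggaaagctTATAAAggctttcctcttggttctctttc
H2BC21: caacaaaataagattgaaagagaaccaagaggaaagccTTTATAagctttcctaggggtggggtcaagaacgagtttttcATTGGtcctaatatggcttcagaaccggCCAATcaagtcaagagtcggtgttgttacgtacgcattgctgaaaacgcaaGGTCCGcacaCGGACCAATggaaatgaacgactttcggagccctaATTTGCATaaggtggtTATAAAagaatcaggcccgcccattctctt
H3C14: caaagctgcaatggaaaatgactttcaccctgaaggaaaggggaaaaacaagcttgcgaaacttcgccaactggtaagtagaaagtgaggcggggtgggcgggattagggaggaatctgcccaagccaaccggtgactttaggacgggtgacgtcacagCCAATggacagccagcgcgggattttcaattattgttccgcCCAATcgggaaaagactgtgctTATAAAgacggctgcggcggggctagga
H4C5: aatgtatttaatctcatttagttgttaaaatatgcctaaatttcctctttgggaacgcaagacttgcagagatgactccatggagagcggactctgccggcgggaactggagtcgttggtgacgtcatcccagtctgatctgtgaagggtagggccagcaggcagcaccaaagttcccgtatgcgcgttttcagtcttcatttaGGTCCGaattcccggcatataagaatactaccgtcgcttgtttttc
H4C6: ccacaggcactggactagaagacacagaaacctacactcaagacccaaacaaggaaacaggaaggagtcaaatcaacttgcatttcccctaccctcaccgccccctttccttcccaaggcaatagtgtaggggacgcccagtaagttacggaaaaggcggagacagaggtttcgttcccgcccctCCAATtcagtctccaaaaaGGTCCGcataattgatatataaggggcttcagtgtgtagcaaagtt

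H2AC20 and H2BC21 print the same stretch from opposite sides, since their starts lie 236 bases apart on opposite strands. ATTTGCAT ends 39 bases before the start of H2BC21 and is read as ATGCAAAT, 197 bases before the start, in H2AC20. TATAAA stands at 29 bases before the start in H2AC20, 30 in H2BC21 and 28 in H3C14. In H2AC20 and H2BC21 a GGTCCG overlaps an ATTGG or CCAAT. H4C5, with 1558 to 1964 bases under peaks, and H4C6, with 0 in all libraries, carry GGTCCG at the same place, 46 to 41 bases before the start.

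RefSeq promoters were found for 64 of the 69 members, with a start within 50 bases of the GENCODE start in 62, and H2AC12, H3C11, H3C12, H4C1 and H4C3 are left out of these counts. TATAAA or TTTATA was in 42 of the 64 (65.6%), against 11.1% of all 27305 RefSeq promoters. CCAAT or ATTGG was in 54 (84.4%), against 33.0%. The octamer was in 26 (40.6%), against 1.66%. It was in 14 of 18 H2B and 11 of 16 H2A promoters, in 1 of 11 H3 promoters and in 0 of 13 H4 promoters. Head-to-head genes share most of the stretch searched, so a match of any motif there can count for both genes. In 13 H2B promoters ATTTGCAT lay a median of 49 bases before the start. In 10 H2A promoters ATGCAAAT lay farther off, 118 to 208 bases before the start. CCAAT or ATTGG was in every H1, H2A, H2B and H3 promoter matched, and in 3 of 13 H4 promoters. GGTCCG, letters chosen after the promoters had been seen, was in 12 of 13 H4 promoters, where its first base lay 44 to 47 bases before the start. GGTCCG or CGGACC was in 15 members in all (23.4%, against 9.33% of all promoters). A match is a string of letters, not an occupied site. The families thus differed in their letters. By presence of a peak, the octamer was in 16 of 40 promoters with a peak in all libraries and in 8 of 19 with none. TATAAA or TTTATA was in 29 of 40 and 12 of 19, and CCAAT or ATTGG in 32 of 40 and 17 of 19.

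Base composition of the windows differed little by presence of a peak. Over the 2001 bases around the start (1000 to each side), median GC content was 48.8% for the members and 56.0% for all protein-coding genes, and the ratio of observed to expected CpG was 0.774 against 0.636. Members with a peak in all 4 libraries had a median GC content of 49.2% and a CpG ratio of 0.776. The members with no peak had 48.3% and 0.755, whereas all protein-coding genes with no peak had a CpG ratio of 0.481.

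Over chromosomes 1 to 22, X and Y, the lists held 22136 to 24523 peaks that covered 32.7, 33.7, 27.9 and 23.0 Mb. The ratio of covered bases after knockdown was thus 1.03 in Kasumi-1 and 0.825 in MV4-11. Read totals are not in the lists, so depth is unknown and a difference in depth cannot be told apart from a difference in the mark, nor can fewer marked cells from less mark per cell. Of the 5 myeloid markers, SPI1 had a promoter peak in all 4 libraries, CEBPA in 3, CD33 in both Kasumi-1 libraries, LYZ in both MV4-11 libraries and MPO in none. Markers of the lines did not set the lines apart as labelled, and the line names used here rest on the labels. HOXA9, known for KMT2A-fusion leukemia, had 2001 bases under peaks in both Kasumi-1 libraries and 259 and 277 in the MV4-11 libraries. HOXA10 had 2001, 2001, 949 and 665. MEIS1 had 1380 to 1547 bases in all 4 libraries. KIT, POU4F1 and RUNX1T1, chosen for Kasumi-1, were at 0 in all. The markers PAX5, CD3E, CD8A, GATA1 and ALB of other lineages were at 0 in all.

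Most histone genes had a peak in the window around their start in both lines. A peak touched the window around the start of 47 of 69 members (68.1%) in control Kasumi-1 cells and 48 (69.6%) after knockdown. The counts in MV4-11 were 44 (63.8%) and 42 (60.9%). Over all protein-coding genes the shares were 46.3%, 43.8%, 33.8% and 26.7%. From the first to the last of these libraries the share of all genes was lower by more than the share of histone genes. A peak was present in all 4 libraries at 42 members (24.1% of all genes) and in none at 21 members (51.7% of all genes). Presence was therefore the same in the 4 libraries for 63 of 69 members (91.3%), and for 75.8% of all genes.

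**Figure D1:**
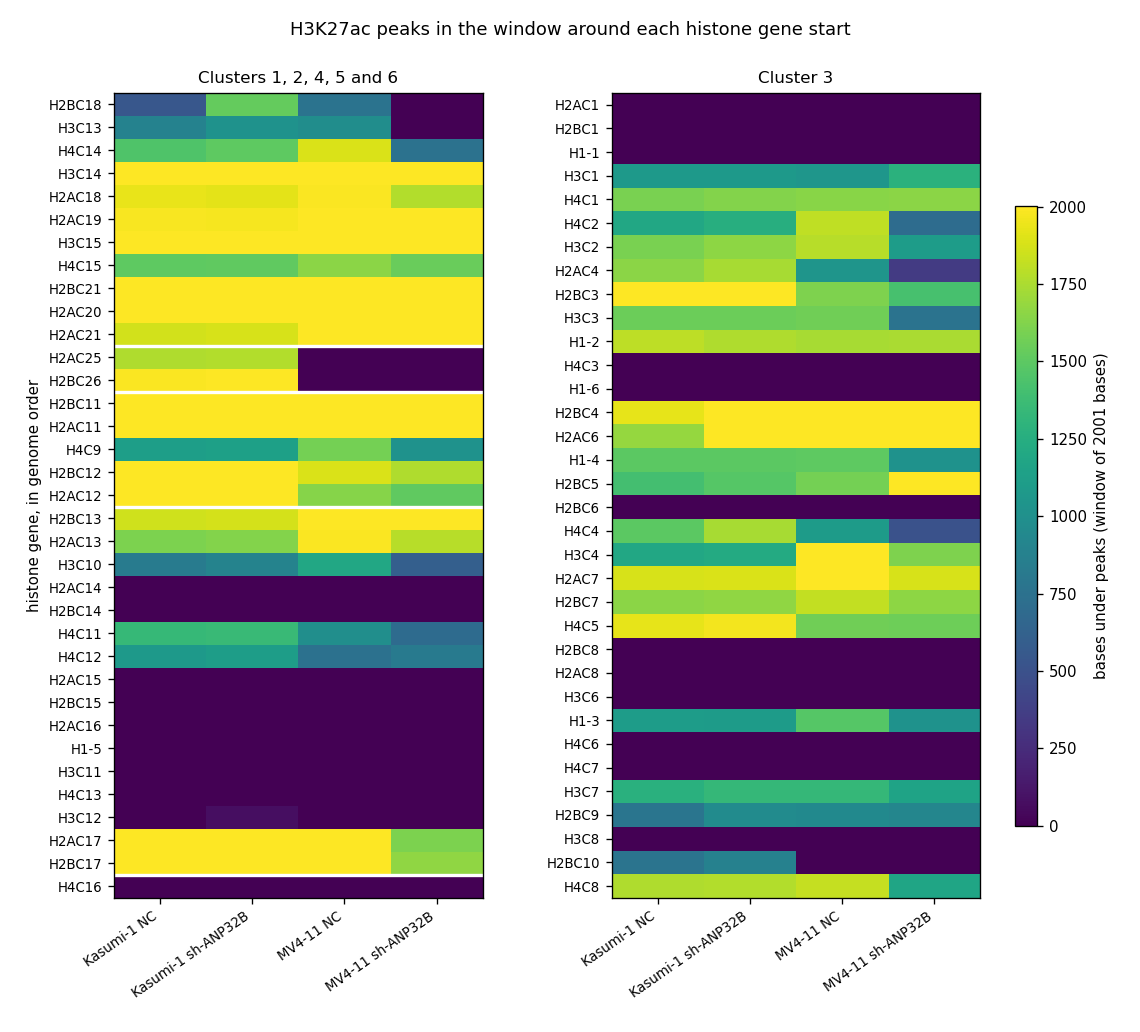
Bases under H3K27ac peaks in the window of 2001 bases around the start of each of the 69 histone genes (rows, in genome order, white lines between clusters) in the 4 libraries (columns). The 21 genes with no peak are dark in all columns, and 42 genes have a value above 0 in every column.

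**Figure D2:**
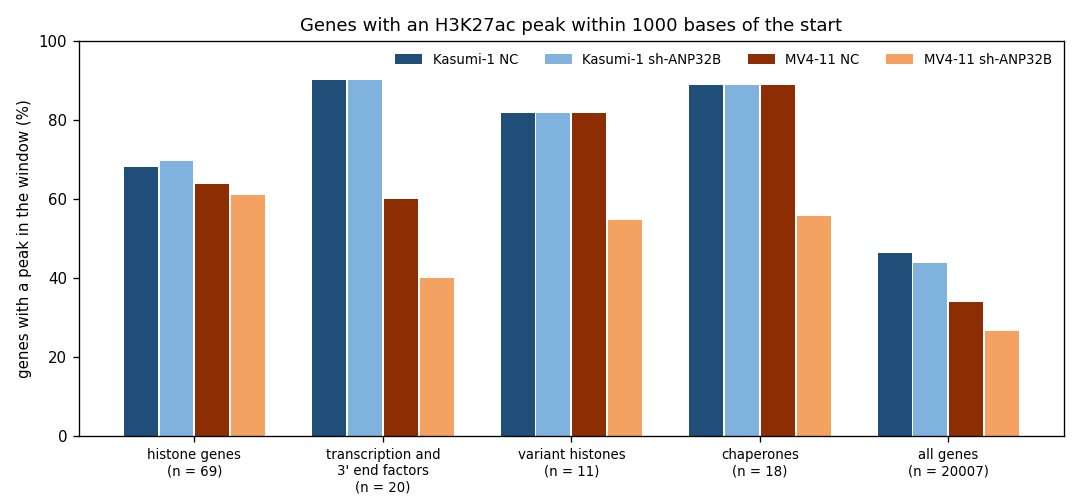
Share of genes (%) with a peak within 1000 bases of the start, by library, for the histone genes, 3 lists of histone pathway genes and all protein-coding genes. Bars are single libraries, so there is no error bar, and the histone gene bars stand at 60.9% to 69.6%.

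After ANP32B knockdown few histone genes lost or gained their peak. In Kasumi-1, 0 of 47 members with a peak in NC lost it, against 7.1% of all such genes, and 1 of 22 without a peak gained one, against 1.45%. In MV4-11, 2 of 44 lost their peak, against 25.7% of all such genes, and 0 of 25 gained one, against 2.36%. These counts rest on a few genes and on peaks that neighbouring members share. Among members without copied sequence, 0 of 26 lost their peak in MV4-11. When only peaks of at least 1000 bases were counted, 8 of 43 members lost theirs in MV4-11 (40.8% of all such genes), namely H2BC18, H3C13, H2AC4, H3C10, H4C2, H4C4, H4C11 and H4C15, and 0 of 26 gained one (1.12%). In Kasumi-1, 0 of 43 lost theirs (12.7% of all such genes) and 3 of 26 gained one (2.8%). Of the 8 named for MV4-11, all but H2BC18 and H3C13 still had narrower peaks in their windows after knockdown. At H4C15 separate peaks of 823 and 822 bases stood there, and its window had 1547 bases under peaks, against 1650 in NC.

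The members that lost their peak in MV4-11 were H2BC18 (start at 149812370 on chromosome 1) and H3C13 (149813693), neighbours that shared a single NC peak of 1063 bases at chr1:149812612-149813674. H2BC18, which encodes an H2B, had 545 bases under peaks in control Kasumi-1 cells and 1528 after knockdown, against 759 and 0 in MV4-11. H3C13, which encodes an H3, had 885, 1019, 982 and 0 bases in the same order. At both genes the Kasumi-1 value was higher after knockdown and the MV4-11 value was 0. In Kasumi-1 the shared peak was 885 bases wide in NC, where it did not reach the start of H2BC18, and 1869 bases wide in sh-ANP32B, where it did. Both windows are copied elsewhere on chromosome 1, with 7 matching stretches for H2BC18 and 9 for H3C13, and the stretches outside cluster 1 had 0 bases under peaks in every library. How reads were divided between the copies was not tested.

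The gain in Kasumi-1 was H3C12, an H3 gene (start at 27890826 on chromosome 6), with 0 bases in control Kasumi-1 cells, 75 after knockdown and 0 in both MV4-11 libraries. Those 75 bases were the edge of the peak over H2AC17 and H2BC17, which was 2967 bases wide in NC and 3142 in sh-ANP32B. The start of H3C12 itself lay outside that peak.

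Presence differed between the lines at 3 members in both conditions, each with a peak in Kasumi-1 only. H2AC25 and H2BC26 make up the small cluster on the long arm of chromosome 1 and share a start region. H2AC25 had 1762 bases in control Kasumi-1 cells and 1774 after knockdown, and 0 in both MV4-11 libraries. H2BC26 had 1992 and 2001 bases, and 0 in both MV4-11 libraries. H2BC10, in the large cluster of chromosome 6, had 772 and 881 bases, and 0 in both MV4-11 libraries. Between the NC libraries, 3 members (13.7% of all genes) had a peak in Kasumi-1 only and 0 (1.22% of all genes) in MV4-11 only. Between the sh-ANP32B libraries, 6 members (18.4% of all genes) had one in Kasumi-1 only and 0 (1.28%) in MV4-11 only.

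The 21 members with no peak in any library came from all 5 families. They were H1-1, H1-5 and H1-6 among the H1 genes, H2AC1, H2AC8, H2AC14, H2AC15 and H2AC16 among the H2A genes, and H2BC1, H2BC6, H2BC8, H2BC14 and H2BC15 among the H2B genes. H3C6, H3C8 and H3C11 of the H3 family and H4C3, H4C6, H4C7, H4C13 and H4C16 of the H4 family completed the set. H1-6, H2AC1 and H2BC1 are known as testis-specific genes. The nearest peak to the starts of H2AC1 and H2BC1 was at least 107082 bases away in every library. H2AC16, H1-5, H3C11 and H4C13 follow each other along cluster 5 with their nearest peaks 18218 to 26927 bases away. H3C8 had a peak 1547 bases away in Kasumi-1 sh-ANP32B, H4C7 one 2180 bases away in the same library, and H1-1 one 2390 bases away in MV4-11 sh-ANP32B. H2BC6 had another annotated start that lay within a peak in 3 libraries and just outside one in MV4-11 sh-ANP32B (peaks of 1398 to 1987 bases), while its canonical start was at least 4376 bases from any peak.

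The number of bases under peaks after knockdown went different ways in the lines. Where both libraries of a line had a peak, 30 of 47 members had more bases after knockdown in Kasumi-1 (41.8% of all genes), 5 had fewer (45.3% of all genes) and 12 had the same number (12.9%). In MV4-11, 26 of 42 had fewer bases (73.5% of all genes), 5 had more (22.9%) and 11 the same (3.54%). The median difference, sh-ANP32B minus NC, was 13 bases in Kasumi-1 (0 over all genes) and -128 bases in MV4-11 (-148 over all genes). Differences in Kasumi-1 were small: 41 of 47 members differed by under 100 bases (56.2% of all genes), 6 had at least 100 more (18.2%) and 0 at least 100 fewer (25.6%). In MV4-11, 24 of 42 members had at least 100 bases fewer, a share near that of all genes (56.5%), 9 of them had at least 500 fewer (17.4%), and 2 had at least 100 more (12.6%). A window that is already wholly under peaks cannot gain, which held for 11 control windows in Kasumi-1 and 14 in MV4-11. Nor does it show a fall while a wider peak still spans it. All 11 members with the same number in MV4-11 were wholly covered in both libraries. Peaks there could still differ in width: that over H2BC4 and H2AC6 had 3918 bases in NC and 2839 in sh-ANP32B, and that over H2BC21 had 4362 and 4419. The shares and medians above are limited in this way.

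**Figure D3:**
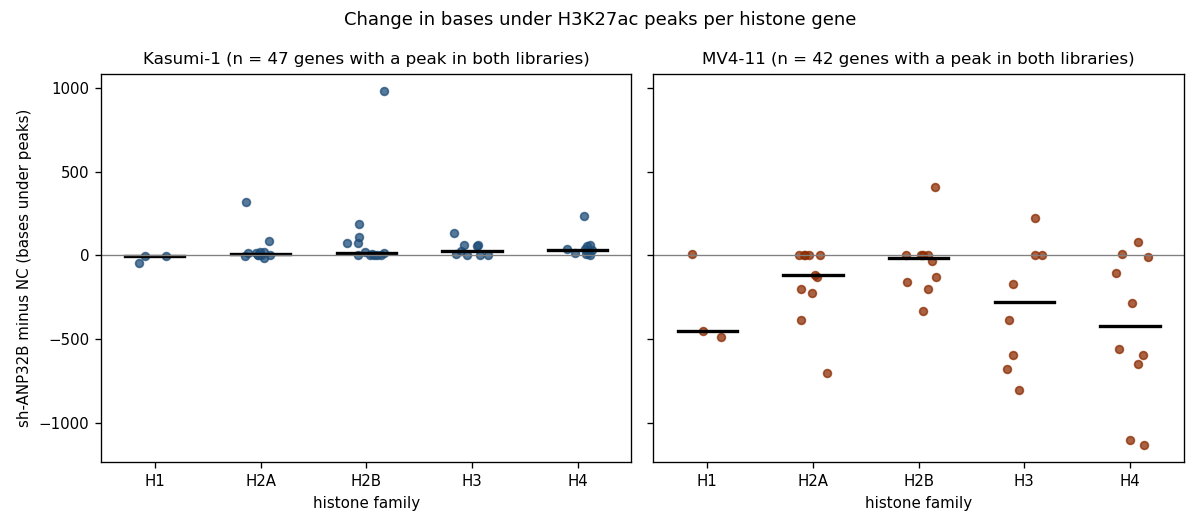
Difference in bases under peaks (sh-ANP32B minus NC) for each histone gene with a peak in both libraries of the line, by family. Points are genes and black lines are family medians, which lie between -4 and 33 bases in Kasumi-1 and between -454 and -15.5 bases in MV4-11.

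Many windows overlap, so the same bases were also counted once. The 69 windows joined into 45 regions of 110053 bases, of which 56345 (51.2%) were under peaks in control Kasumi-1 cells and 58824 (53.5%) after knockdown. In MV4-11 these numbers were 55685 (50.6%) and 45926 (41.7%). The ratio after knockdown was 1.04 in Kasumi-1 and 0.825 in MV4-11, next to 1.03 and 0.825 for all covered bases of these lists. Summed over genes, the ratio was 1.04 and 0.840 for the members and 0.926 and 0.711 for all protein-coding genes. The histone windows therefore had a ratio near that of the whole lists and above that of gene starts.

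By family, the difference in MV4-11 was widest at H1, H4 and H3 genes. The H4 genes, whose product forms a tetramer with H3 at the centre of the nucleosome, had a peak at 10 of 15 members in each library. All 10 had more bases in Kasumi-1 sh-ANP32B than in NC (median difference 33), whereas 8 of 10 had fewer in MV4-11 (median -421.5). The H3 genes had a peak at 9, 10, 9 and 8 of 13 members, and the median difference was 27 in Kasumi-1 against -280 in MV4-11. The H2A genes, whose product pairs with H2B, had 12, 12, 11 and 11 of 17 with medians of 6 and -119. The H2B genes had 13, 13, 11 and 10 of 18 with medians of 13 and -15.5. The H1 genes, for the linker histone that binds where DNA enters and leaves the nucleosome, had a peak at 3 of 6 in each library. These were H1-2, H1-3 and H1-4, with 43, 3 and 4 bases fewer in Kasumi-1, and in MV4-11 with 8 bases more at H1-2 and a family median of -454. The families differ in how many of their windows were wholly covered and in how many share a peak, and the differences between them were not tested.

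The widest differences in MV4-11 were mostly at H4 and H3 genes. H4C14 had 1453 bases in control Kasumi-1 cells and 1508 after knockdown, against 1885 and 753 in MV4-11. H4C2 had 1196, 1256, 1811 and 706 bases in the same order. At both genes MV4-11 NC was the highest library and MV4-11 sh-ANP32B the lowest. The peak over H4C2 was 2736 bases wide in control MV4-11 cells, and after knockdown its span held separate peaks of 619 and 706 bases. H3C3 had 1552, 1552, 1569 and 763 bases, so that the first 3 libraries were close to each other and MV4-11 sh-ANP32B lay far lower. H2AC4, a neighbour of H3C2, had 1656, 1740, 1047 and 346 bases. A single peak, 2773 bases wide in control Kasumi-1 and 2354 in control MV4-11 cells, spanned the starts of H3C2 and H2AC4, while after knockdown in MV4-11 separate peaks of 1107 and 346 bases remained. H3C2 itself had 1599, 1660, 1789 and 1107 bases.

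Few members had more bases in MV4-11 after knockdown. H2BC5 had 1404 bases in control Kasumi-1 cells and 1476 after knockdown, against 1586 and 1994 in MV4-11, where knockdown had 408 bases more. H3C1 had 1077, 1083, 1050 and 1275 bases, and the last was again the highest. At H4C12 the values were 1083, 1113, 746 and 825, and the MV4-11 libraries stayed below the Kasumi-1 libraries. H4C1 and H1-2 differed by only 10 and 8 bases in MV4-11, where H4C1 had 1646 and 1656 bases and H1-2 had 1737 and 1745.

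In Kasumi-1 the largest differences were mostly upward. After H2BC18 (983 bases more) came H2AC6, with 1682 bases in control Kasumi-1 cells and all 2001 in the other 3 libraries. There the peak shared with H2BC4 was 1945 bases wide in NC, followed by a separate peak of 1163 bases, and a single peak of 3507 bases spanned both places in sh-ANP32B. H4C4 had 1498, 1736, 1097 and 501 bases, more after knockdown in Kasumi-1 and fewer in MV4-11. H2BC9 had 777, 966, 949 and 918 bases, and H3C13 134 more in Kasumi-1. Only 5 members had fewer bases in Kasumi-1, by 3 to 43: H1-2 (1803 and 1760), H2AC18 (1934 and 1918), H2AC19 (1981 and 1975), H1-4 (1498 and 1494) and H1-3 (1105 and 1102). No spread between replicates is known to set beside differences of this size.

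Opposite directions in the lines were common. Of the 42 members with a peak in all 4 libraries, 18 (42.9%) had a difference of opposite sign in Kasumi-1 and MV4-11, against 40.6% of all such genes, a share near the background.

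Some members were covered throughout in every library. The window was wholly under peaks in all 4 libraries for 6 members, H2AC11, H2AC20, H2BC11, H2BC21, H3C14 and H3C15, against 0.44% of all genes. Per library, 11, 14, 14 and 11 members were wholly covered, against 5.74%, 5.53%, 1.47% and 0.845% of all genes. The highest member of the H1 family was H1-2, with 1737 to 1803 bases, and that of the H4 family was H4C5, with 1927, 1964, 1565 and 1558 bases. At H4C5 the Kasumi-1 libraries were higher than the MV4-11 libraries, and the conditions differed by 37 and 7 bases.

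The peaks at histone genes were wide for their lists. Member windows met 32 different peaks in each of the first 3 libraries and 31 in MV4-11 sh-ANP32B. Their median width was 1899 bases in control Kasumi-1 cells and 1966 after knockdown, against 2315.5 and 1231 in MV4-11. The peaks at all protein-coding starts had medians of 1429, 1377.5, 942 and 798 bases. Ranked by width within its own list from 0 to 100, the median histone peak stood at 77.5, 79.4, 90.4 and 73.6. Peaks of at least 2000 bases numbered 12, 15, 17 and 13 (37.5%, 46.9%, 53.1% and 41.9% of the histone peaks), against 28.1%, 27.3%, 14.3% and 10.8% of the peaks at all starts. In MV4-11 the median width of the histone peaks was lower after knockdown by more than that of all promoter peaks, while the largest histone peak was 4819 bases in NC and 4444 in sh-ANP32B. The histone medians rest on 32 and 31 peaks, and the share of at least 2000 bases was lower after knockdown in both sets. Some NC peaks stood as separate peaks after knockdown, as at H4C15, with 2302 bases in NC and 823 and 822 in sh-ANP32B.

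Coverage was placed on the start and the short transcript. The start itself was under a peak in 45, 46, 39 and 33 members (65.2%, 66.7%, 56.5% and 47.8%), against 41.3%, 35.2%, 23.8% and 16.5% of all genes. The whole transcript was under peaks in 44, 45, 37 and 29 members. This count was not made for all genes, so it does not set the short histone transcripts apart from others. In MV4-11 the count of starts under a peak was thus 39 in NC and 33 in sh-ANP32B, where the count of windows with a peak was 44 and 42. Within the windows more bases were covered downstream of the start than upstream, 41162 against 33404 in control Kasumi-1 cells and 33135 against 27903 in MV4-11 after knockdown. At 500 bases downstream, 66.7%, 68.1%, 60.9% and 52.2% of the members were under a peak, against 35.3%, 32.8%, 19.1% and 13.3% of all genes. At 500 bases upstream the members' shares were 47.8%, 47.8%, 49.3% and 40.6%, against 27.1%, 26.3%, 14.6% and 10.8%, so that all genes too were covered more often downstream.

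**Figure D4:**
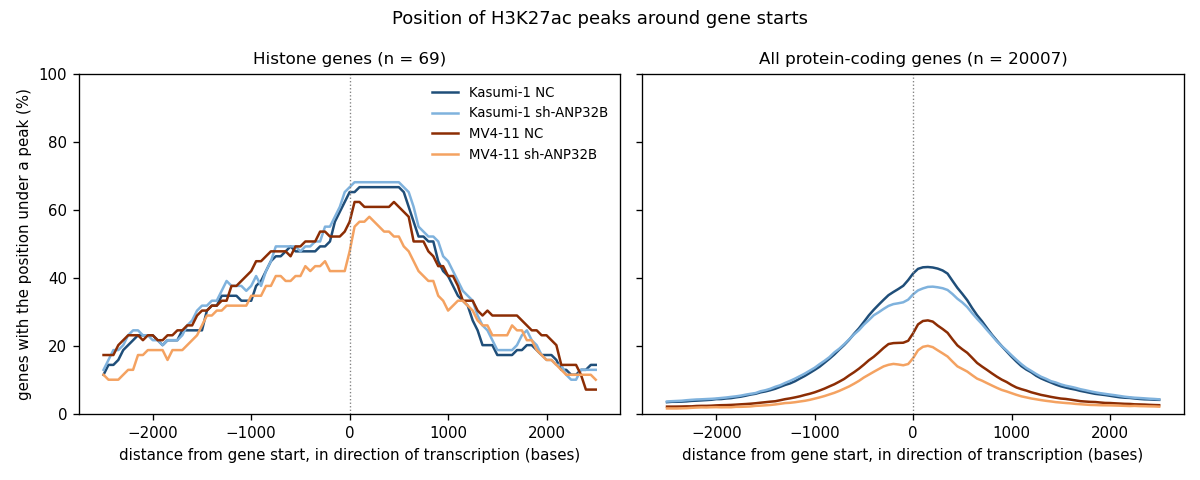
Share of genes (%) whose position at a given distance from the start lies under a peak, for the 69 histone genes (left) and all 20007 protein-coding genes (right), by library. At the start the histone gene lines stand at 65.2%, 66.7%, 56.5% and 47.8%, above those of all genes in each library.

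Head-to-head pairs were alike in presence. In 13 pairs (26 members), the starts lay on opposite strands, 194 to 251 bases apart in 12 pairs and 979 bases apart for H3C7 and H2BC9. Both genes of a pair had the same presence in every library in all 13 pairs: 8 pairs had a peak in all 4 libraries, 4 in none, and H2AC25 with H2BC26 in Kasumi-1 only. The pairs with none were H2AC1 with H2BC1, H2BC8 with H2AC8, H2AC14 with H2BC14 and H2AC15 with H2BC15. Since the windows of a pair overlap, a peak is mostly counted for both genes. In the pairs up to 251 bases apart with a peak, the bases between the starts were wholly covered except between H2AC17 and H2BC17 in MV4-11 sh-ANP32B. There 103 of 241 bases were covered, and 2 peaks stood in place of the single NC peak of 4012 bases. Between H3C7 and H2BC9, 252 to 330 bases were covered in the 4 libraries.

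The genes fell into 6 clusters (neighbours at most 300000 bases apart, with 5000 bases added at each side, hg38). Cluster 1 (chr1:149806879-149892965) ran from H2BC18 to H2AC21 with 11 members, and cluster 2 (chr1:228452364-228463558) held H2AC25 and H2BC26. Cluster 3 (chr6:25721063-26290534) ran from H2AC1 to H4C8 with 34 members. Cluster 4 (chr6:27127316-27152562) held 5 members from H2BC11 to H2AC12, cluster 5 (chr6:27802479-27898891) held 16 from H2BC13 to H2BC17, and cluster 6 (chr12:14765720-14776131) held H4C16 alone.

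Clusters differed in how much of them was marked. Peaks covered 37.6% of cluster 4 and 18.7% of cluster 1 in Kasumi-1 NC, but 9.65% of cluster 5 and 6.65% of cluster 3. Cluster 3 includes a long stretch with no member, between H2BC1 (to chr6:25727345) and H1-1 (from chr6:26017032). In Kasumi-1 NC that stretch held only peaks of 684, 1159 and 1284 bases, which lowers the share of cluster 3. The order of clusters 3 and 5 thus depends on the distance used to join neighbours. All 5 members of cluster 4 had a peak in each library. In cluster 1, 11 of 11 had one in 3 libraries and 9 in MV4-11 sh-ANP32B, in cluster 3, 22, 22, 21 and 21 of 34, and in cluster 5, 7, 8, 7 and 7 of 16. H4C16 had none, and cluster 6 held a single peak of 405 bases, in MV4-11 NC.

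Over whole clusters the covered bases repeated the pattern of the windows in clusters 1, 3 and 4. Cluster 1 had 16124 bases under peaks in control Kasumi-1 cells and 17216 after knockdown (ratio 1.07), and 20522 and 15611 in MV4-11 (ratio 0.761). Cluster 3 had 37886 and 41044 bases (1.08), and 39509 and 31456 (0.796). Cluster 4 had 9501 and 10276 (1.08), and 8590 and 7234 (0.842). Cluster 5 had 9300 and 8679 (0.933), and 9780 and 8400 (0.859), so that it alone had fewer bases after knockdown in both lines. Its Kasumi-1 NC list held a peak of 1008 bases outside the windows that the sh-ANP32B list lacked. Cluster 2 had 2231 and 2238 bases in Kasumi-1 (1.00) and 0 in MV4-11. The number of peaks in cluster 3 was 26, 25, 21 and 23, so that covered bases in MV4-11 were lower after knockdown with more peaks.

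**Figure D5:**
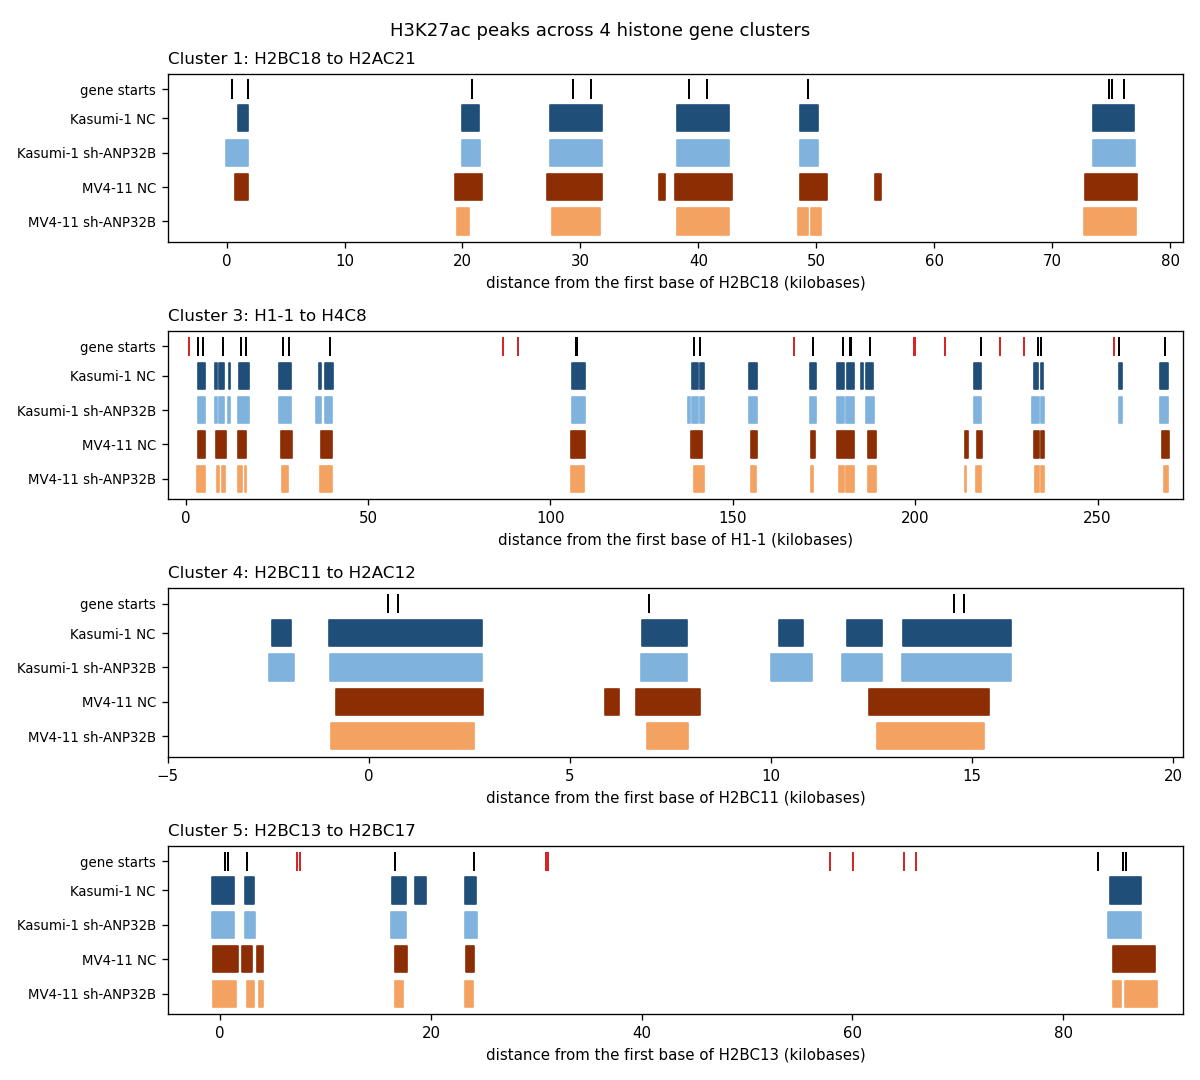
Peaks (bars) of the 4 libraries along clusters 1, 3, 4 and 5, with distance from the first base of the named gene in kilobases (for cluster 3 from H1-1). Ticks mark gene starts, in red where no library had a peak in the window, and these ticks stand away from the bars.

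Part of the covered bases of cluster 3 lay outside the windows of histone genes, namely 10500, 12455, 11796 and 9011 bases. Among these was the peak at or next to the other start of H2BC6, at chr6:26171555-26173541 in Kasumi-1 NC, which was 1987, 1974, 1494 and 1398 bases wide in the 4 libraries. Another, at chr6:25991741-25993024 in Kasumi-1 NC, was 1284, 1482, 1573 and 1725 bases wide and so was wider after knockdown in both lines.

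Near-identical copies limit what can be read from cluster 1. An exact copy of at least 100 bases lay elsewhere in the genome for 25 of 69 windows, which were all 11 in cluster 1, both in cluster 2, 2 of 34 in cluster 3, 2 of 5 in cluster 4 and 8 of 16 in cluster 5. The windows of H4C14 and H4C15 were identical over all 2001 bases. Their values were 1453 and 1506 in control Kasumi-1 cells and 1508 and 1515 after knockdown. In MV4-11 they were 1885 and 1650 in the control and 753 and 1547 after knockdown. Identical sequence thus had values 53 and 7 bases apart in Kasumi-1 and 794 bases apart in MV4-11 sh-ANP32B. The windows of H3C14 and H3C15 each had a matching stretch of their full length on chromosome 1, and both were wholly under peaks in every library. Their GC content was 63.97% and 64.12%, so these windows were not identical to each other. Among the 44 members without a copy, 18 of 26 with a peak in both MV4-11 libraries had fewer bases after knockdown (median difference -266.5), and among those with a copy 8 of 16 did (median -15.5). Windows wholly covered in both MV4-11 libraries show no fall. With a copy these were H2AC19, H2AC20, H2AC21, H2BC13, H2BC21, H3C14 and H3C15, and without one H2AC6, H2AC11, H2BC4 and H2BC11. Whether copied sequence had a part in the difference between these sets was not tested.

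Genes that act on histone messages and histone proteins were set beside the members, as 3 lists of 49 genes in all. The genes for histone gene transcription and 3′ end processing had a peak at 18, 18, 12 and 8 of 20. The replication-independent histone variants had one at 9, 9, 9 and 6 of 11, and the histone chaperones at 16, 16, 16 and 10 of 18. In Kasumi-1, 1 gene of the lists lost its peak, against 7.1% of all genes with one. In MV4-11, 13 lost theirs, which was 4 of 12, 3 of 9 and 6 of 16 by list, against 25.7% of all such genes.

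NPAT had 1363 bases under peaks in control Kasumi-1 cells, 1458 after knockdown and 0 in both MV4-11 libraries. CASP8AP2 (FLASH), a partner of NPAT in the histone locus body, had 1541 and 1522 bases and 0 in both MV4-11 libraries. In that line 44 of 69 histone genes had a peak in control cells and 42 after knockdown. Of all protein-coding genes 33.8% and 26.7% had one, so a start without a called peak was common there. A missing peak is not an absent mark, and whether NPAT or CASP8AP2 was active in MV4-11 was not tested. SLBP had 2001, 2001, 1885 and 1833 bases and POU2F1 1970, 2001, 1622 and 1525, while HINFP was at 0 in all 4 libraries.

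The genes of the first list that lost their peak in MV4-11 were CPSF3, the nuclease that cuts histone messages (633 bases in NC), SYMPK, a scaffold of the cutting complex (412), CSTF2T, a cleavage stimulation factor (480), and E2F1, a cell cycle transcription factor (1043). In Kasumi-1, LSM11, a protein of the U7 particle, had 741 bases in NC and 0 after knockdown, and CSTF2 had 0 and 748. Of the variants, H2AZ1 (384 bases in MV4-11 NC), H2AX (640) and H2AJ (193) lost their peak in MV4-11. Of the chaperones, CHAF1A (461) and CHAF1B (376), subunits of CAF-1, the assembly factor that loads new H3 and H4 behind the replication fork, did so too. NASP, a carrier of H3 and H4, had 904 bases in MV4-11 NC and HAT1, which acetylates new H4, had 1002, and both were at 0 after knockdown. RBBP7 (391) and DAXX (415), which deposits the H3.3 variant, were the remaining losses. All 16 list genes of the variants and chaperones with a peak in both MV4-11 libraries had fewer bases after knockdown (73.5% of all genes), as did 7 of 8 in the first list, where CSTF2 had 652 and 656.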

How the data were processed

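H3K27ac was profiled by CUT&Tag in Kasumi-1 and MV4-11 cells, as NC and sh-ANP32B, with 1 deposited peak list per group. The 2 IgG libraries were not analysed here. According to the methods, the authors aligned reads to hg38, removed PCR duplicates with Picard, merged replicates with samtools and called peaks at a q-value threshold. The labels name Bowtie2 2.4.4 and MACS3 3.0, whereas the methods name MACS2 and another Bowtie2 version. How reads that match several places were treated is not given in the sources used here. The deposited lists hold positions and length in bases for each peak, with no score, q-value or signal, so peaks could be compared only by position and width, and no read depth was known.

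Peaks on chromosomes 1 to 22, X and Y were set against GENCODE genes (hg38). A member had a peak where at least 1 base of a peak lay within 1000 bases of the start of its canonical transcript, and bases under peaks were counted in that window of 2001 bases. A peak was lost where NC had one and sh-ANP32B of the same line had none, and gained in the reverse case. 1 gene with a fitting symbol on another chromosome was left out. Copies of at least 100 exact bases were searched with BLAST+ 2.17.0. Intervals were computed with numpy 2.4.6 and pandas 2.3.3 and tested on simulated data. Named were members that lost or gained a peak, the 5 largest differences each way per line, the highest and lowest member per family, members with no peak, and pathway genes that lost or gained a peak. The members, lists and rules were chosen with earlier results of these data known. Other windows, starts, peak widths, the same smallest width and merging distance (357 bases) in every list, overlaps of at least 100 bases, cluster edges and members without copies were tried as alternatives. A marker of another lineage is not reported here.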

Additional observations from a re-analysis of the deposited data

Results flagged for a closer look

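Kasumi-1 and MV4-11 had differences of opposite direction after ANP32B knockdown at several places. Among genes with a peak in all 4 libraries, opposite signs were about as common at members (42.9%) as at all protein-coding genes (40.6%). No test of how the lines differed was made, since each group had 1 library, and a difference in depth between libraries cannot be told apart from it.

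The ratio of bases under peaks (sh-ANP32B over NC) in the windows of the histone genes was 1.04 in Kasumi-1 and 0.825 in MV4-11. Across cluster 1 it was 1.07 and 0.761, across cluster 3 it was 1.08 and 0.796, and across cluster 4 it was 1.08 and 0.842. The ratio over the whole lists also lay on opposite sides of 1, at 1.03 and 0.825.

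Of the single genes named, H2BC18 had 983 bases more in Kasumi-1 and a difference of -759 in MV4-11, and its neighbour H3C13 had 134 and -982. H4C14 had differences of 55 and -1132, H4C2 of 60 and -1105, H4C4 of 238 and -596, and H4C5 of 37 and -7. H3C2 had 61 and -682, H2AC4 had 84 and -701, and H2BC9 had 189 and -31. H1-2 went the other way, with -43 in Kasumi-1 and 8 in MV4-11. H2BC18, H3C13, H4C14 and H2BC9 have copied sequence in their windows.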

How the results depend on the processing

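Of 138 values under other settings, 115 stayed close to the value reported and 23 moved. Most of these values were counts, which have no direction that could turn. None of the ratios passed to the other side of 1. With windows of 500 bases to each side, 0 members gained a peak in Kasumi-1, 3 had fewer and 12 more bases there, and 1 had more in MV4-11. With 2500 bases, 1 member (H1-1) gained a peak in MV4-11 and 8 had fewer bases in Kasumi-1. With all annotated starts, or an overlap of at least 100 bases, 0 gained a peak in Kasumi-1. With peaks of at least 1000 bases, 3 members gained one in Kasumi-1 (H2BC18, H3C13 and H3C12), 8 lost theirs in MV4-11, where 2 did with all peaks, and the ratio of cluster 5 in MV4-11 was 0.695. Among the 44 members without a copy, 27, 28, 26 and 26 had a peak (Kasumi-1 NC, Kasumi-1 sh-ANP32B, MV4-11 NC, MV4-11 sh-ANP32B), 0 lost it in MV4-11, and 3 had fewer and 18 more bases in Kasumi-1. These counts are over fewer genes. With overlapping windows joined into 45 regions, a setting chosen after seeing the data, 29, 30, 27 and 26 had a peak and 1 lost it in MV4-11. The same smallest width and merging distance in every list moved no count or ratio by more than the limits of 1.5 times for counts and 10% for ratios, though H2AC4 then also lost its peak in MV4-11. Where a window, width or start setting moved a value, the cause was not tested. No paired analysis was possible because each group had 1 peak list. Depth is unknown, so a missing peak is not an absent mark.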
